A study of Mus musculus with 7 samples.

Results

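The intermediate filament genes Des, Sync, Synm, Vim, Nes, Krt7, Krt8, Krt18, Krt19 and Krt14 were examined in mouse epicardial explants with and without lamin B1. These 10 genes were taken by name from deposited tables of 22738 gene rows, and each matched 1 row. All 10 passed the filter on low counts that left 10775 tested genes. Their mRNA was counted in 3 Lmnb1-/- and 4 wild type RNA sequencing libraries. E12.5 ventricles were laid on gelatin for 48 hours and removed, and the outgrowth was kept for a further 72 hours without the heart. Both genotypes were on the mixed C57BL/6;129S4Sv/Jae;129S6/SvEvTac background and received no treatment. Lmnb1 encodes lamin B1, itself an intermediate filament protein of the nuclear lamina, and the series addresses its part in the timing of epicardial cell migration. The labels do not say which Lmnb1 allele was used or whether replicates came from separate embryos, so p-values measure the spread between these libraries. The wild type libraries included both sexes and so came from more than 1 embryo, but how far the spread within either genotype is technical is not known.

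Intermediate filaments are the most flexible of the cytoskeletal polymers and are built from a large gene family whose members mark cell lineages. Desmin fills muscle cells, vimentin fills mesenchymal cells, and keratins of type I and type II pair obligately to form the filaments of epithelia. The epicardium is a mesothelium, an epithelial sheet that makes simple keratins together with vimentin, and its cells can undergo an epithelial-to-mesenchymal transition that yields fibroblasts and the smooth muscle cells and pericytes of coronary vessels. The balance between desmin, vimentin and keratins is therefore often read as a description of where such cells stand along this path.

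Total counts ran from 1786519 to 3066936 in Lmnb1-/- libraries and from 1024898 to 2732236 in wild type libraries, the smallest being wild type replicate 2. There, 3 counts made 2.93 CPM, the counts scaled to a common library size. Lmnb1 itself had 4, 2 and 4 counts in Lmnb1-/- replicates 1 to 3, against 463, 185, 488 and 567 counts in wild type replicates 1 to 4. The epicardial and mesothelial markers were present in every library, with a summed level of 2944 to 3477 CPM in Lmnb1-/- explants and 3444 to 4468 CPM in wild type explants over 14 genes. By Xist and Y-linked counts, wild type replicates 1 and 3 came from females and the other 5 libraries from males. Across all tested genes, 76 genes were called at a Benjamini-Hochberg adjusted p under 0.05 in the quasi-likelihood test of edgeR, which gives every edgeR p below, 39 higher and 37 lower in Lmnb1-/- explants (47 higher and 26 lower with library totals in place of TMM, the trimmed-mean scaling used here).

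Of the 10 intermediate filament genes, 2 fell in Lmnb1-/- explants and none rose. The genes that fell were Des and Sync, both of the muscle type. At an unadjusted p under 0.05 there were 5 of the 10, namely these 2 with Krt7, Krt8 and Krt18 higher, and 1469 of all 10775. Among all tested genes, 0.705% were called in either direction and 0.343% were called lower. The groups' CPM ranges did not overlap for 4 of the 10, namely Des and Sync, which were lower in Lmnb1-/- explants, and Krt7 and Krt8, which were higher there, a separation also seen in 13.3% of the tested genes. Fitted log2 fold changes, Lmnb1-/- over wild type, were below 0 for Des, Sync, Synm and Nes and above 0 for Vim and all 5 keratins. The median was 0.13 over the 10 genes and -0.015 over all tested genes. Explants are mixtures, so fewer cells of a type and less RNA per cell cannot be told apart.

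**Figure D1:**
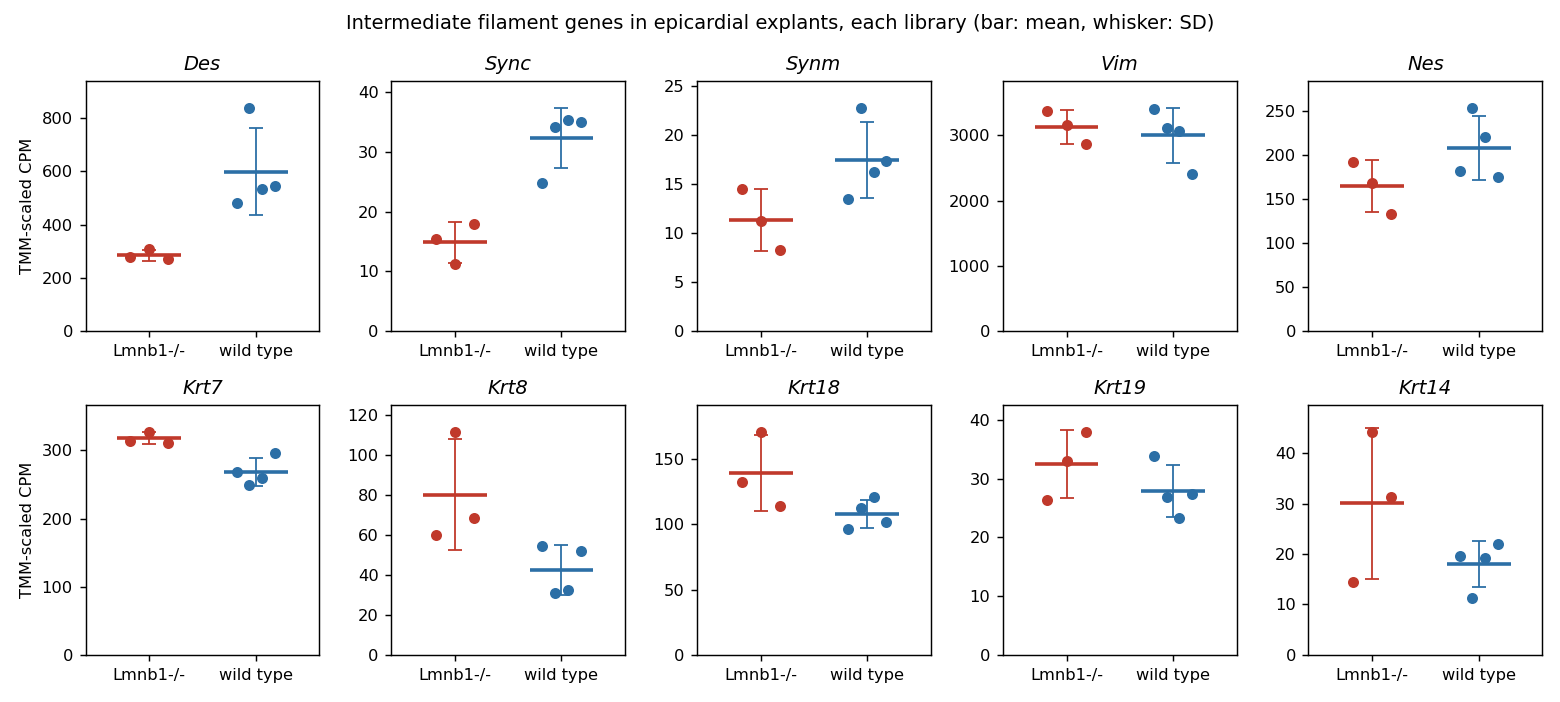
TMM-scaled CPM (y axis, from 0) of each of the 10 genes in every library, with Lmnb1-/- libraries in red on the left of each panel and wild type libraries in blue on the right; bars are means and whiskers SD. Lmnb1-/- libraries lie below every wild type library for Des (270.3 to 308 against 480 to 839 CPM) and Sync, above every one for Krt7 and Krt8, and overlap them for the other 6 genes.

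Levels of different genes were compared as CPM per kilobase of the longest protein-coding GENCODE transcript, an approximation because the annotation behind the counts is not given in the sources used here. On this scale Vim was first in both genotypes, at 1428 ± 118 in Lmnb1-/- explants (SD, n = 3) and 1366 ± 192 in wild type explants (SD, n = 4), and supplied 78.8 ± 2.26% and 75.4 ± 3.49% of the summed level of the 10 genes. In Lmnb1-/- explants Krt18 (96.9 ± 20.2 CPM per kilobase), Des (94.3 ± 6.66) and Krt7 (77.6 ± 2.16) followed, and the ranges of Krt18 and Des overlapped. Next came Krt8, Nes, Krt19, Krt14 and Sync, each overlapping its neighbour in that order, and Synm was last at 1.45 ± 0.3998 CPM per kilobase. In wild type explants Des stood alone in second place at 198 ± 53.6 CPM per kilobase, above the range of Krt18 (75.1 ± 7.61), which overlapped that of Krt7 (65.5 ± 4.91). There Nes (34.0 ± 5.98 CPM per kilobase) was separate from both neighbours, Krt8, Krt19, Sync and Krt14 overlapped in that order, and Synm was again last at 2.23 ± 0.497. The place of Krt7 depends on the length used. Its transcript is 4094 bases long but its coding part only 1371, and per kilobase of coding sequence Krt7 ranked 2 in Lmnb1-/- explants and 3 in wild type explants.

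Des encodes desmin, the filament protein of cardiac, skeletal and smooth muscle. It had 278, 308 and 270.3 CPM in Lmnb1-/- replicates 1 to 3, against 479.8, 839, 534 and 544 CPM in wild type replicates 1 to 4. Every Lmnb1-/- library was below every wild type library, and wild type replicate 2 was far above the other three. The means were 286 ± 20.2 CPM in Lmnb1-/- explants (SD, n = 3) and 599 ± 162 CPM in wild type explants (SD, n = 4). Desmin mRNA was thus 52.1% lower in Lmnb1-/- explants (log2 fold change -1.06, SE 0.18, edgeR adjusted p = 0.0294). Without wild type replicate 2 the log2 fold change was -0.86 and the adjusted p 0.00335 in the same edgeR test, so the call does not rest on the highest library. The call was lost without wild type replicate 3 (edgeR adjusted p = 0.0872) and without Lmnb1-/- replicate 1, 2 or 3 (0.133, 0.138 and 0.108), with log2 fold changes of -1.11, -1.04, -1.12 and -1.02.

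Sync encodes syncoilin, a muscle protein that joins desmin to the dystrophin-associated complex through alpha-dystrobrevin. Its levels were 15.4, 11.2 and 17.98 CPM in Lmnb1-/- replicates 1 to 3, from 48, 20 and 35 counts, against 24.8, 34.1, 35.4 and 35.0 CPM in wild type replicates 1 to 4, from 57, 33, 94 and 83 counts. The groups did not overlap, and wild type replicate 1 was the library nearest to the Lmnb1-/- range. Syncoilin mRNA was 53.4% lower in Lmnb1-/- explants, with means of 14.9 ± 3.42 and 32.3 ± 5.05 CPM (SD, n = 3 Lmnb1-/- and n = 4 wild type). On the log2 scale the difference was -1.10 (SE 0.21, edgeR adjusted p = 0.0383). This call was less firm than that of Des, since it passed in 8 of 19 alternative settings where Des passed in 15 of 19, and leaving out any library other than wild type replicate 1 ended it (edgeR adjusted p from 0.0617 to 0.199). It was also lost with sex as a covariate (0.0846) and within male libraries (0.0510), where Des kept its call (0.0127 and 0.0140), and the log2 fold changes there were -1.21 for Sync and -1.27 for Des in both settings.

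The promoter windows of these 2 genes are shown because both fell. Each runs from 250 bases before to 50 bases after a start site annotated by RefSeq on GRCm38.p6, chr1:75360042-75360341 on the plus strand for Des and chr4:129287371-129287670 on the plus strand for Sync. Capitals mark matches, on either strand, to the E-box CANNTG bound by basic helix-loop-helix factors such as MyoD and Tcf21, and to the GC box GGGCGG bound by Sp1.
Des: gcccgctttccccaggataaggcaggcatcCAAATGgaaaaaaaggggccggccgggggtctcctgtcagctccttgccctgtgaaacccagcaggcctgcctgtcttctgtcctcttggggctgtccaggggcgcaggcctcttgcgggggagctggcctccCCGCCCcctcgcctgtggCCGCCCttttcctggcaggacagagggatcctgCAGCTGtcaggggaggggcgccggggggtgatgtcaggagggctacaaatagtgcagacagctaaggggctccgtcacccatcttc
Sync: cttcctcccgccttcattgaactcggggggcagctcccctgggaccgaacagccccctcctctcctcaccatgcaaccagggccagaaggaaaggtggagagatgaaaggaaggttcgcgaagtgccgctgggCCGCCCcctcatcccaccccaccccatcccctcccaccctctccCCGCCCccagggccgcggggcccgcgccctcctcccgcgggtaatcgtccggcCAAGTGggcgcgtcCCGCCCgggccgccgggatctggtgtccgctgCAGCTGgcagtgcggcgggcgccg
Each window holds 2 E-boxes, and in each of them 1 reads CAGCTG, the form favoured by muscle factors, starting at base -36 in Des and 27 in Sync counted from the start site. Of the 9 members with a window 7 hold an E-box and 3 hold CAGCTG, and the other member with CAGCTG, at base 41, is Krt8, which has 3 E-boxes and a log2 fold change above 0. Of 32851 promoter windows of the same length, 72.3% hold an E-box of any form, 16.3% hold CAGCTG and 35.7% hold a GC box, of which Des has 2 and Sync 3. The CArG box of serum response factor and the MEF2 site were found in neither window, nor in those of the other 7 members with a window, and 1.63% and 3.19% of all windows hold them. These are matches of letters, and no binding was measured.

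Synm encodes synemin, a large filament protein that co-assembles with desmin or vimentin and links them to adhesion sites. It had 14.5, 11.2 and 8.22 CPM in Lmnb1-/- replicates 1 to 3, against 13.5, 22.7, 16.2 and 17.3 CPM in wild type replicates 1 to 4. The highest Lmnb1-/- library lay above the lowest wild type library, so the groups overlapped. The log2 fold change was -0.55 with a 95% interval of -1.13 to 0.018 (edgeR adjusted p = 0.383), from 16 to 45 counts per library. A fall as large as that of Des is inside this interval.

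Vimentin, the filament protein of mesenchymal cells and of the mesothelium, did not pass the test. Vim had 3374, 3161 and 2859 CPM in Lmnb1-/- replicates 1 to 3, against 3406, 3115, 3058 and 2406 CPM in wild type replicates 1 to 4. The ranges overlapped almost wholly, with wild type replicates 1 and 4 the highest and the lowest of all 7 libraries. The log2 fold change was 0.064 (SE 0.12, edgeR adjusted p = 0.858), and its 95% interval of -0.20 to 0.33 does not reach the change of Des. The sign of so small a value is not stable, and it was -0.030 with the replicate number as a block and -0.019 without wild type replicate 4.

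Nes encodes nestin, a filament protein of progenitor cells that co-assembles with vimentin. It had 192, 169 and 134 CPM in Lmnb1-/- replicates 1 to 3, against 182, 254, 221 and 175 CPM in wild type replicates 1 to 4. Lmnb1-/- replicate 1 lay inside the wild type range and the other Lmnb1-/- libraries below it. With a log2 fold change of -0.32 and a 95% interval of -0.65 to 0.0080, the gene did not pass (edgeR adjusted p = 0.380).

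**Figure D2:**
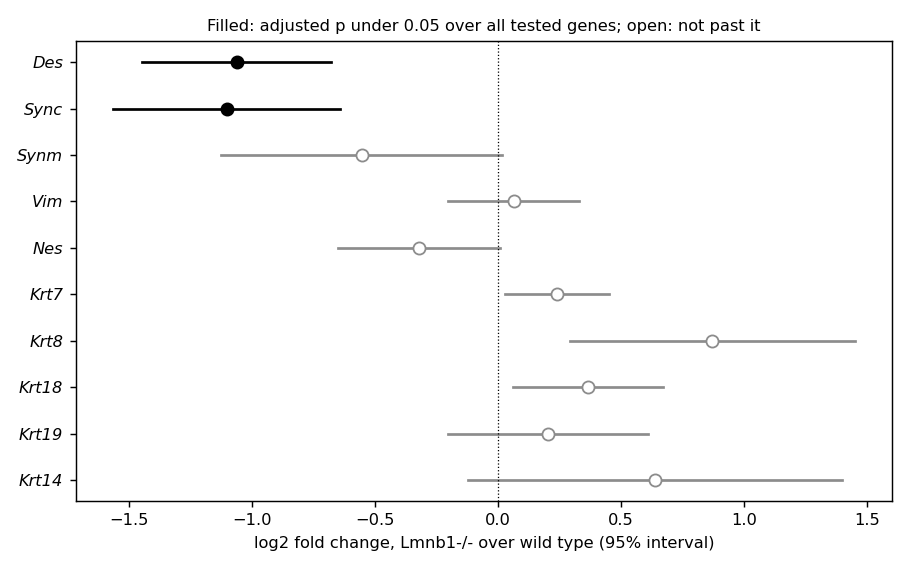
Log2 fold change of each gene (x axis, Lmnb1-/- over wild type) with its 95% interval, not adjusted for the number of genes; filled points passed an adjusted p of 0.05 over all tested genes. The muscle-type genes Des and Sync lie near -1.1, Vim lies at 0.064, and the 5 keratins lie between 0.20 and 0.87 without passing.

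Among type II keratins, Krt7 and Krt8 were each higher in all 3 Lmnb1-/- libraries than in any wild type library, though neither passed the test. Krt7 encodes keratin 7, a keratin of ducts and mesothelia. It had 314, 328 and 311 CPM in Lmnb1-/- replicates 1 to 3, against 268, 248.99, 259.8 and 296 CPM in wild type replicates 1 to 4. These were tight groups, and the difference was small, a log2 fold change of 0.24 (SE 0.098, 95% interval 0.029 to 0.45, edgeR adjusted p = 0.307). Krt8 encodes keratin 8, the main type II keratin of simple epithelia. Its first-column values were 60.1, 112 and 68.3 CPM in Lmnb1-/- replicates 1 to 3, against 54.4, 31.0, 32.4 and 51.9 CPM in wild type replicates 1 to 4. Lmnb1-/- replicate 2 stood well above the rest, and the other Lmnb1-/- libraries were just above wild type replicates 1 and 4. The log2 fold change of 0.87 (SE 0.26, 95% interval 0.29 to 1.45) was the largest among the 5 keratins and did not pass (edgeR adjusted p = 0.183). It passed with DESeq2 (adjusted p = 0.0348) and in no other alternative, and it was 0.57 without Lmnb1-/- replicate 2 and 0.51 with a block for library numbers.

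Type I keratins showed smaller or less even differences. Krt18 encodes keratin 18, the partner of keratin 8, and had 132, 171 and 114 CPM in Lmnb1-/- replicates 1 to 3, against 96.6, 113, 121 and 102 CPM in wild type replicates 1 to 4. Only Lmnb1-/- replicate 3 fell inside the wild type range, and replicate 2 was again the highest. The log2 fold change was 0.37 (SE 0.14, 95% interval 0.061 to 0.67, edgeR adjusted p = 0.279). Krt19, for keratin 19, the smallest keratin and a marker of simple and ductal epithelia, had 26.4, 33.1 and 38.0 CPM in Lmnb1-/- replicates 1 to 3, against 33.9, 26.9, 23.3 and 27.4 CPM in wild type replicates 1 to 4. The groups overlapped, with a log2 fold change of 0.20 (95% interval -0.20 to 0.61, edgeR adjusted p = 0.674). Leaving out replicate 1 gave 0.35 for the Lmnb1-/- library and 0.32 for the wild type library, leaving out replicate 3 gave 0.082 for the Lmnb1-/- library and 0.12 for the wild type library, and a block for library numbers gave 0.043. Krt14, for keratin 14, the type I keratin of basal cells in stratified epithelia, varied most. It had 14.5, 44.3 and 31.3 CPM in Lmnb1-/- replicates 1 to 3, a 3.06-fold spread within the genotype, against 19.6, 11.4, 19.2 and 21.9 CPM in wild type replicates 1 to 4. Its log2 fold change of 0.64 had a 95% interval of -0.12 to 1.40 (edgeR adjusted p = 0.454). It was 1.009 without Lmnb1-/- replicate 1, 0.26 without Lmnb1-/- replicate 2 and 0.29 with a block for library numbers. Krt5, the usual partner of Krt14 in stratified epithelia, had 1 count in Lmnb1-/- replicate 2 and 0 in the other 6 libraries. Markers of stratified epithelium summed to 30.5 to 55.5 CPM in Lmnb1-/- explants and 35.7 to 75.4 CPM in wild type explants. Perp and Sfn made most of this sum, and 7 of the 11 markers had fewer than 10 counts over all libraries. The part of stratified cells in the spread of Krt14 was not tested.

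The deposited tables carry a second, unnamed count column, which was read from its values as reads that match several places in the genome. For Krt8 this column held 200, 247 and 152 counts in Lmnb1-/- replicates 1 to 3, against 143, 42, 132 and 119 in wild type replicates 1 to 4. That was 51.7 to 55.4% of both columns' counts in Lmnb1-/- libraries and 49.2 to 60.6% in wild type libraries, so the first column gives about as many reads of this gene as it leaves out. With both columns summed Krt8 had 142 ± 54.2 CPM in Lmnb1-/- explants (SD, n = 3) and 76.5 ± 15.6 CPM in wild type explants (SD, n = 4) (log2 fold change 0.86, SE 0.25, edgeR adjusted p = 0.191). For Krt18 the second column held 2, 2 and 0 counts in Lmnb1-/- replicates 1 to 3, against 1, 0, 3 and 4 in wild type replicates 1 to 4, and with both columns summed the log2 fold change was 0.36 (SE 0.14, edgeR adjusted p = 0.284). Type I keratins of chromosome 11 also had second-column counts. Krt14 held 6, 10 and 20 of them in Lmnb1-/- libraries, against 6, 4, 13 and 30 in wild type libraries. Krt16, a close relative, held 4, 8 and 15 in Lmnb1-/- libraries, against 6, 3, 8 and 16 in wild type libraries, and had none in the first column. Krt14 and Krt16 levels are therefore uncertain. With both columns summed the log2 fold change was 0.49 for Krt14 (edgeR adjusted p = 0.626) and 0.062 for Krt19 (0.926), whose second column held 26 counts in wild type replicate 4 and 0 in the other 6 libraries. Des, Sync, Synm and Krt7 had no second-column count in any library.

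**Figure D3:**
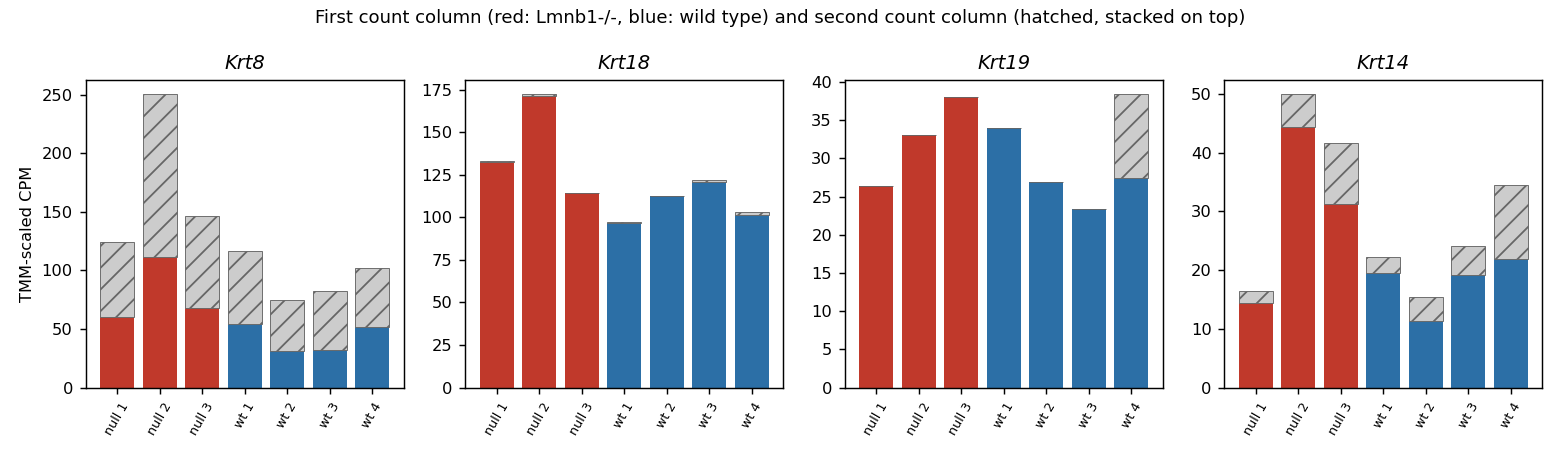
CPM of 4 keratins (y axis, from 0) in each library, split into the first count column (red for Lmnb1-/-, blue for wild type) and the second count column stacked above it (hatched). The second column is 49.2 to 60.6% of the Krt8 total in every library, near 0 for Krt18, and present for Krt19 in wild type replicate 4 alone.

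Ratios within a library do not depend on scaling between libraries. The ratio of Des to Vim, in counts per kilobase, was 0.0597, 0.0707 and 0.0685 in Lmnb1-/- replicates 1 to 3, against 0.102, 0.195, 0.126 and 0.164 in wild type replicates 1 to 4. All 3 Lmnb1-/- libraries were below all 4 wild type libraries. This too was fixed by Des itself. Its step between the genotypes, from 308 to 479.8 CPM, was a larger fold than the whole range of Vim, 2406 to 3406 CPM. Des to Krt7 was 1.20, 1.27 and 1.18 in Lmnb1-/- libraries, against 2.42, 4.56, 2.78 and 2.48 in wild type libraries. The groups had to stand apart in this ratio, since Des was lower and Krt7 higher in every Lmnb1-/- library. Desmin supplied 5.22 ± 0.322% of the summed level per kilobase of the 10 genes in Lmnb1-/- explants (SD, n = 3) and 10.98 ± 2.67% in wild type explants (SD, n = 4). The 5 keratins together made 14.0 ± 2.13% in Lmnb1-/- explants and 10.7 ± 1.69% in wild type explants, with overlapping ranges. Krt8 to Krt18 was 0.333, 0.479 and 0.4397 in Lmnb1-/- libraries, against 0.413, 0.202, 0.197 and 0.375 in wild type libraries, which overlapped, and the ratio was higher in both groups, at 0.898 ± 0.194 and 0.646 ± 0.192, when both count columns were used. Sync to Des was 0.0783 ± 0.0226 in Lmnb1-/- explants and 0.0827 ± 0.0178 in wild type explants, with overlapping ranges. None of these ratios was tested.

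**Figure D4:**
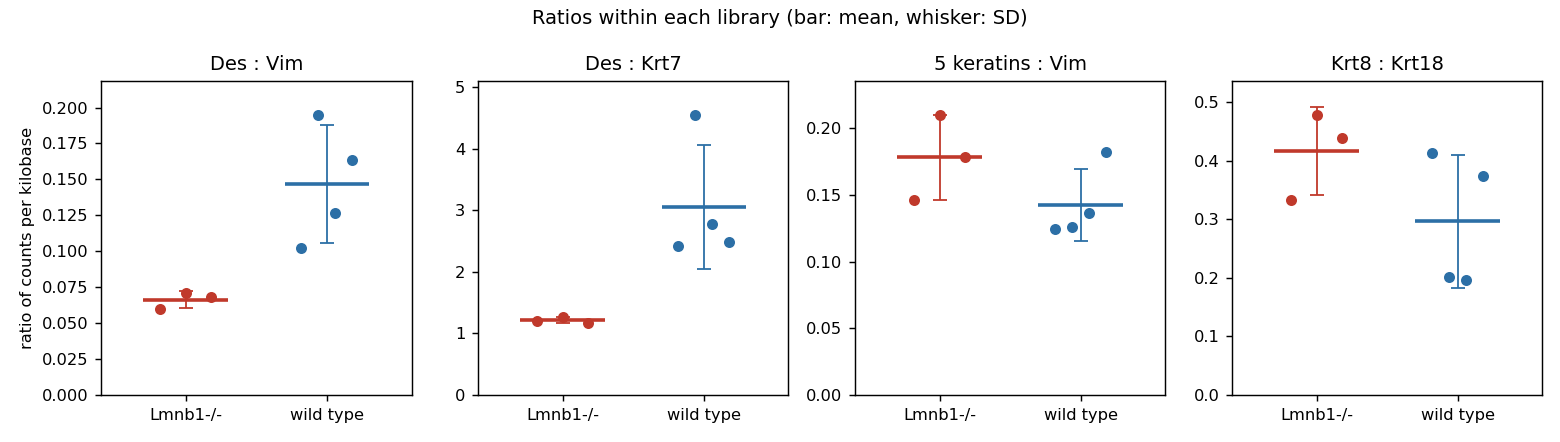
Ratios of counts per kilobase within each library (y axes, from 0), Lmnb1-/- in red on the left and wild type in blue on the right, with mean bars and SD whiskers; 5 keratins are Krt7, Krt8, Krt18, Krt19 and Krt14. Des : Vim and Des : Krt7 separate the genotypes (Des : Vim 0.0597 to 0.0707 against 0.102 to 0.195), while the keratin ratios overlap. The separation of Des : Krt7 follows from those of Des and Krt7 themselves, and that of Des : Vim from the gap in Des.

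Some smooth muscle and pericyte genes fell along with Des and Sync. Of 16 tested markers, which exclude Des, 4 fell, 0 rose and 12 did not pass, where 0.343% of all tested genes were called lower. All 16 had log2 fold changes below 0, with a median of -0.75, against 5647 of all 10775 tested genes and a median of -0.015. The summed level of all 20 markers was 10865 to 11655 CPM in Lmnb1-/- explants and 13424 to 15680 CPM in wild type explants, and the part of such cells in the Des and Sync results was not tested. Cspg4, for the pericyte proteoglycan NG2, had 56.3, 55.5 and 82.2 CPM in Lmnb1-/- libraries, against 137, 183, 160.4 and 134 CPM in wild type libraries. Actg2, for smooth muscle gamma actin, had 16.7, 30.8 and 22.6 CPM in Lmnb1-/- libraries, against 61.8, 121, 89.6 and 154 CPM in wild type libraries. Pdgfrb and Acta2 also fell, and Lmod1, for leiomodin 1 of smooth muscle (log2 fold change -1.24, edgeR adjusted p = 0.0572), and Tagln (-0.34, 0.148) did not pass. Wild type replicate 1, the lowest wild type library for Des and Sync, was also the lowest of the wild type libraries in this summed level. Other libraries matched for 1 of the 2 genes only. Wild type replicate 3 had the highest sum and the highest Sync, but Des was highest in wild type replicate 2. Lmnb1-/- replicate 2 had the highest sum and the highest Des of its genotype, but the lowest Sync. Acta2 and Tagln made most of the sum, with means of 3617 and 4185 CPM in Lmnb1-/- explants and 5138 and 5302 CPM in wild type explants. Leaving out wild type replicate 3 left 0 of these markers past the threshold, as did leaving out either of the first 2 Lmnb1-/- libraries, whereas 1 (Cspg4) passed when Lmnb1-/- replicate 3 was left out, and 7 passed when wild type replicate 1 was left out. The calls of Pdgfrb and Acta2 were also lost with sex as a covariate, which left Actg2 and Cspg4, and in male libraries, which left Actg2 and Cspg4 and added Lmod1. The block for library numbers lost them too, left Actg2 and Cspg4, and added Lmod1, Myh11 and Cnn1. Acta2 was also not called with a replicate block, with both count columns, or without wild type replicate 2 or 4. Actg2 lost its call with limma voom, without a count filter, with both count columns and without wild type replicate 2.

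Cardiomyocyte genes, which go with desmin and syncoilin in heart muscle, overlapped between the genotypes. Their summed level was 564 to 741 CPM in Lmnb1-/- explants and 562 to 928 CPM in wild type explants, and 0 of 6 tested markers passed in edgeR, 0 of them at an unadjusted p under 0.05 (median log2 fold change -0.080). Of 18 markers, Myh7 was at 0 counts in every library and Myh6 and Tnni3 had at most 2 and 1. Others were well detected. Myl7 had means of 385 CPM in Lmnb1-/- explants and 412 CPM in wild type explants. Tnnt2 had 119 and 120 CPM, and Tnni1 105 and 87.9 CPM. Macrophage markers varied within both genotypes, with summed levels of 40.5, 199.7 and 496 CPM in Lmnb1-/- replicates 1 to 3 and 120.1, 59.9, 73.8 and 311 CPM in wild type replicates 1 to 4. All 6 tested macrophage markers had log2 fold changes above 0 (median 0.67), and 0 passed in edgeR, with 0 at an unadjusted p under 0.05. Endothelial markers summed to 59.1 to 93.6 CPM in Lmnb1-/- explants and 63.1 to 90.9 CPM in wild type explants. Of 4 tested, 2 had log2 fold changes above 0 and 2 below (median 0.17), and 0 passed in edgeR, with 1 at an unadjusted p under 0.05. Neural crest and glial markers were near 0, with Sox10 at 0 counts in every library. Of the epicardial markers 12 of 13 tested had log2 fold changes below 0 (median -0.36), and 0 passed in edgeR, with 5 at an unadjusted p under 0.05. Of all 10775 tested genes 5647 had log2 fold changes below 0 (median -0.015), and 1469 had an unadjusted p under 0.05. Since 0.705% of them passed in edgeR, 0 calls in each of these short lists is near that share.

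In the dystrophin-associated complex, which syncoilin binds, 0 of 11 tested members passed in edgeR, with 4 at an unadjusted p under 0.05. Of all 10775 tested genes 0.705% passed, so 0 of 11 is near that share, and 1469 had such an unadjusted p. All 11 had log2 fold changes below 0, the nearest to 0 being -0.010 for Sntb2, with a median of -0.33, against 5647 of all 10775 tested genes and a median of -0.015. Limma voom called 0, DESeq2 and the fit with no count filter called 1 (Sspn), and the fits in male libraries and without wild type replicate 1 called 2 (Sspn and Dmd). Dmd, for dystrophin, had 54.7 ± 11.7 CPM in Lmnb1-/- explants (SD, n = 3) and 94.2 ± 30.4 CPM in wild type explants (SD, n = 4), a log2 difference of -0.80 (edgeR adjusted p = 0.279), and was named, like Sntb2, after its values were seen. Sspn, for the small membrane protein sarcospan, had 12.9, 10.1 and 10.8 CPM in Lmnb1-/- libraries, against 17.4, 31.0, 41.8 and 25.7 CPM in wild type libraries. Its ranges did not overlap, and its log2 fold change of -1.34 (SE 0.29) narrowly missed the threshold (edgeR adjusted p = 0.0544). Dag1, for dystroglycan, had a log2 fold change of -0.51 (edgeR adjusted p = 0.259). Dtna, for the alpha-dystrobrevin that binds syncoilin, was named after its values were seen and stood at 9.34 ± 0.711 CPM in Lmnb1-/- explants (SD, n = 3) and 9.74 ± 1.98 CPM in wild type explants (SD, n = 4), with a log2 fold change of -0.027.

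Linkers, chaperones and kinases of intermediate filaments held no call either. With 0.705% of all tested genes called in edgeR, 0 calls in lists this short is near that share. Of 13 tested plakins, desmosomal proteins and filament chaperones 0 passed in edgeR, DESeq2 or limma voom, 1 had an unadjusted p under 0.05 in edgeR, and the median log2 fold change was -0.098. Pkp4, for plakophilin 4, had 52.5 ± 1.24 CPM in Lmnb1-/- explants and 67.0 ± 4.32 CPM in wild type explants (edgeR adjusted p = 0.256), and Macf1, for the actin and microtubule crosslinking plakin, had a log2 fold change of -0.23 (edgeR adjusted p = 0.384). Among 10 kinases known to phosphorylate vimentin or keratins 0 passed in any of the 3 tools, with 1 at an unadjusted p under 0.05 and a median of 0.14, including Prkca at -0.41 and Rock1 at 0.19 (edgeR adjusted p = 0.345 and 0.412). The lamins Lmna and Lmnb2, the nuclear relatives of these filaments, had log2 fold changes of -0.031 and 0.24 (edgeR adjusted p = 0.935 and 0.634).

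The rest of the cytoplasmic family was almost silent in these explants. Of 54 further rows for keratins, glial fibrillary acidic protein, peripherin, internexin, neurofilaments and the lens filament genes, 28 were at 0 in all 7 libraries and 48 had fewer than 10 counts over all 7. Only Krt20 and Krt80 passed the filter on low counts. Krt20 was at 10.7 ± 4.25 CPM in Lmnb1-/- explants (SD, n = 3) and 10.6 ± 6.37 CPM in wild type explants (SD, n = 4), and Krt80 at 4.59 ± 1.21 and 3.78 ± 1.34 CPM, with edgeR adjusted p of 0.983 and 0.840.

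Among 5802 tested genes with a mean log2 CPM of at least 5, likeness to Des was measured as the mean absolute difference of centred log2 CPM over the 7 libraries. The 5 most alike were Gpr153, Srebf2, Heatr7a, Nacc2 and Mmp19, at 0.13 to 0.16, where the mean distance of Des from its own average was 0.51. All 5 had lower means in Lmnb1-/- explants, as their choice by likeness to Des entails, so no test is given for them. Srebf2, for the sterol-sensing transcription factor SREBP2, had 49.9 ± 1.03 CPM in Lmnb1-/- explants (SD, n = 3) and 87.5 ± 7.95 CPM in wild type explants (SD, n = 4). For Krt19 the 5 most alike were D1Ertd622e, Agpat5, Nup93, Tuba1c and Pak1ip1, at 0.068 to 0.076.

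The calls of Des and Sync were read against the share of all genes called in the same setting. Both passed with RLE size factors (0.715% of all tested genes called), library totals (0.677%), no count filter (1.07%), a CPM of 1 in 3 libraries (0.555%), DESeq2 (2.07%), limma voom (0.538%), both count columns (0.389%) and without wild type replicate 1 (2.63%). Des passed alone without robust fitting (0.343%), with a replicate block (0.715%), with sex as a covariate (0.353%), in male libraries (0.895%), with a block for library numbers (0.863%), and without wild type replicate 2 (0.374%) or 4 (0.266%). Neither passed when wild type replicate 3 (0.0378%) or Lmnb1-/- replicate 1 (0.0367%), 2 (0.0273%) or 3 (0.118%) was left out, settings in which 3 to 13 genes were called in all.

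**Figure D5:**
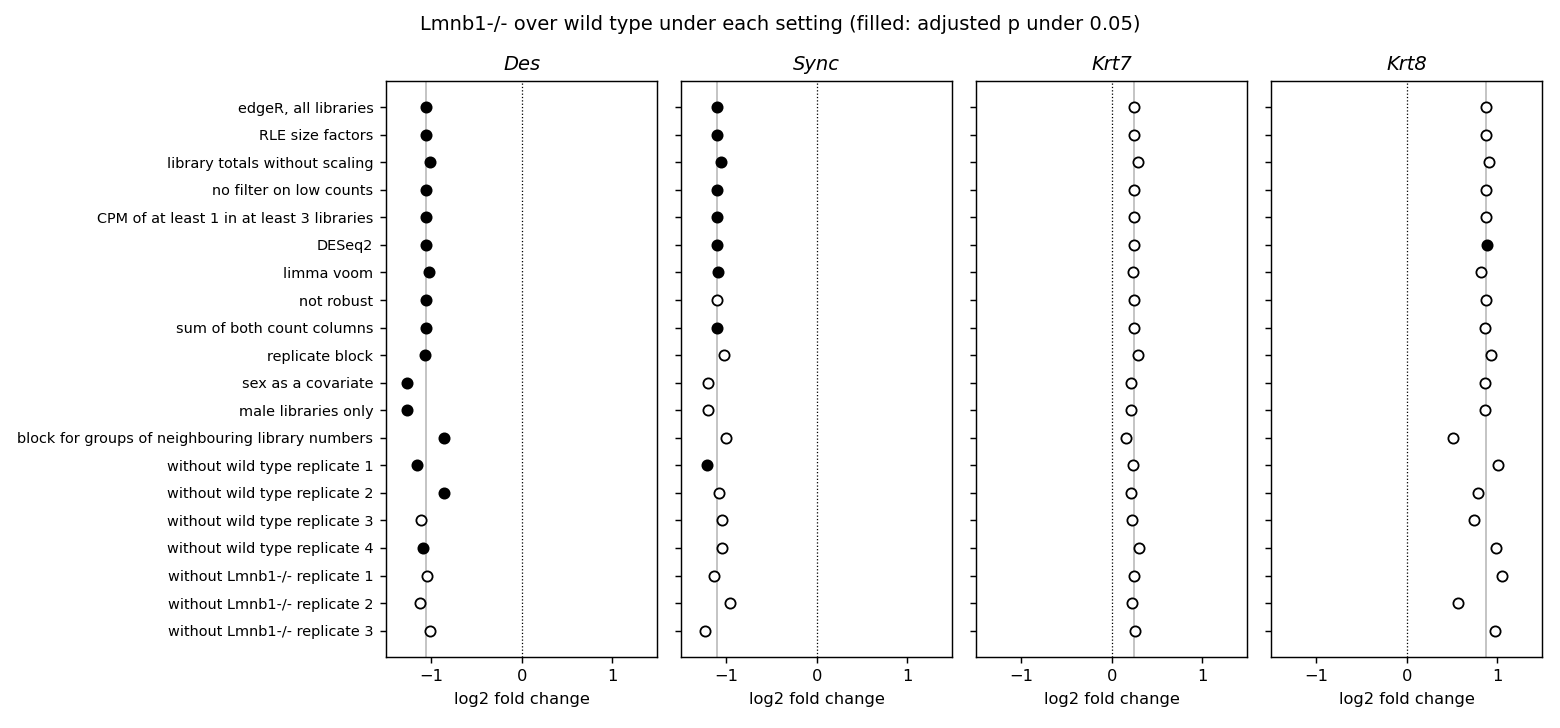
Log2 fold change (x axes, Lmnb1-/- over wild type) of Des, Sync, Krt7 and Krt8 under the setting reported and 19 alternatives (rows), with filled points where the adjusted p was under 0.05. Des lies between -1.27 and -0.86 and passed in 15 of 19 alternatives, Sync between -1.23 and -0.96 with 8 of 19, Krt8 between 0.51 and 1.05 with 1 of 19, and Krt7 between 0.16 and 0.30 with 0.

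The labels give no batch, but the tables' names carry a library number, and libraries with neighbouring numbers were compared within their groups. Wild type replicate 1 and Lmnb1-/- replicate 1 were neighbours, and there Des was at 278 CPM in the Lmnb1-/- library and 479.8 CPM in the wild type library, Sync at 15.4 and 24.8 CPM, Krt7 at 314 and 268 CPM and Krt8 at 60.1 and 54.4 CPM. Lmnb1-/- replicates 2 and 3 and wild type replicate 4 were neighbours too, with Des at 308 and 270.3 CPM in the Lmnb1-/- libraries and 544 CPM in the wild type library, Sync at 11.2 and 17.98 against 35.0 CPM, Krt7 at 328 and 311 against 296 CPM, and Krt8 at 112 and 68.3 against 51.9 CPM. Each gene had the same direction in both number groups. That was fixed in advance, since the ranges of these genes did not overlap between the genotypes, so it says nothing about a batch. Wild type replicates 2 and 3 had no Lmnb1-/- neighbour. With these number groups as a block Des passed (log2 fold change -0.86, edgeR adjusted p = 0.0410) and Sync did not (-1.004, 0.0689).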

How the data were processed

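Per the labels' protocols, PicoPure columns gave the RNA and the TruSeq RNA V2 kit the libraries. That kit does not mark strand, so reads of a gene and of an antisense neighbour are mixed. TopHat, edgeR and mm9 are listed per the submitters' processing notes, while the annotation, counting program and settings are not given in the sources used here. The authors deposited 1 table per library with 2 unnamed columns of whole-number counts per gene, with no normalization recorded per the file headers. Of all counts, the second column had 18.3 to 18.7% in Lmnb1-/- libraries and 16.6 to 19.6% in wild type libraries. The first was used unless stated.

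From these counts, edgeR 4.0.16 (limma 3.58.1, R 4.3.3) was run with filterByExpr, TMM scaling, robust quasi-likelihood fits over all 7 libraries, no covariate and Benjamini-Hochberg adjustment over the 10775 tested genes. Standard errors were derived from each log2 fold change and its F statistic. CPM use TMM-adjusted library totals. Transcript lengths came from GENCODE M21 and promoter windows from RefSeq on GRCm38.p6, matched by symbol for 9 of the 10 members. Coordinates are of that build, not of mm9. The procedure was tested on simulated counts. These held no effect of sex, batch or a single deviating library, so that test does not cover such effects. Replicates of a genotype differed by more than sampling noise, with a chi-square per degree of freedom of 2.32 to 5.01 among Lmnb1-/- libraries and 5.25 to 8.39 among wild type libraries.

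The members, the lists and the alternatives were chosen with earlier results of these data known. The text names all members, the lamins, each list's called members with the 2 of smallest p among the others, and the 5 genes most like Des and Krt19. The alternatives were RLE size factors, library totals, no count filter, limma voom, a CPM of 1 in 3 libraries, no robust fit, DESeq2 1.42.0, both count columns, a replicate block, sex as a covariate, male libraries, a block for library numbers with gaps of at most 2, and each library left out.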

Additional observations from a re-analysis of the deposited data

Results flagged for a closer look

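A total of 47 sets of the 4 wild type values were checked for a library far from the other three, and chance flags about 1 in 20 such sets. Sync stood at 24.8 CPM in wild type replicate 1, well below the 34.1 to 35.4 CPM of the other wild type libraries and above the 11.2 to 17.98 CPM of the Lmnb1-/- libraries. The ratio of Des to Krt7, in counts per kilobase, was 4.56 in wild type replicate 2 and 2.42 to 2.78 in the others. That library has the smallest total, 1024898 counts. The second count column of Krt19 held 26 counts in wild type replicate 4 and 0 in every other library of either genotype, and wild type replicate 4 also held the most second-column counts of Krt14, 30, and of Krt16, 16.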

How the results depend on the processing

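Of 209 refits, 19 for each of the 10 members and Lmnb1, 191 kept both direction and side of the threshold. In 15 a call of Des or Sync was lost, in 1 Krt8 passed, and in 2 the sign of Vim turned, to -0.030 with the replicate block and -0.019 without wild type replicate 4 (-0.019 to 0.13 with single libraries left out). All 5 keratins stayed above 0 in all 19. The number of members called, 2, was 1 (Des) without robust fitting, with the replicate block, with sex as a covariate, in male libraries and with the library number block, and 0 to 2 with single libraries left out. Over all genes the count of 76 was 180 without a count filter, 175 with DESeq2, 37 without robust fitting, 44 with both columns, 38 with sex as a covariate and 3 to 279 with single libraries left out. With the replicate block it was 77. Pathway genes called were 5 of 55 tested, Lmnb1 itself among them, where 0.705% of all tested genes were called. They were 8 with DESeq2, 3 with both columns, 3 with sex as a covariate and 1 to 10 with single libraries left out. Wherever only 1 was called, it was Lmnb1. The causes were not tested. Deviations of same-numbered libraries correlated at 0.29, -0.13 and -0.12, so replicate numbers gave no steady pairing. Pairs with neighbouring library numbers correlated higher than all other pairs of Lmnb1-/- and wild type libraries. They stood at 0.29 (replicate 1 of both genotypes), and at 0.20 and 0.33 (Lmnb1-/- replicates 2 and 3 with wild type replicate 4). The other pairs ran from -0.43 to 0.11, and a batch along the library numbers was not tested. Depth limits Sync, Synm, Krt14 and Krt19, each with under 100 counts in every library.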
